A study of Mus musculus with 24 samples.

Results

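IWP2 treatment of the mouse epiblast stem cell line 129C1 was examined on 4 single-colour Agilent arrays, 2 of 129C1 cells treated with IWP2 and 2 of untreated 129C1 cells, out of 24 arrays in all. The 4 arrays were taken by their labels. Both groups are the same line, established by the original protocol and grown on feeder cells, from which the stem cells were separated before total RNA was extracted. The labels give neither the dose and duration of IWP2 nor the strain, and they do not say whether the 2 arrays of a group came from separate cultures, so p-values may measure technical spread only. 129C1 is 1 line, so the results describe this line. Where other groups are drawn on, they are line Wt1 (also of the original protocol), lines 129Ba1, 129Ba2 and BNa17 (derived in the presence of a Wnt inhibitor), mouse embryonic stem cell (mESC) line J1 with and without 2i, line R1, and E5.5 epiblast, E6.5 epiblast and E7.5 ectoderm, with 2 arrays each.

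Epiblast stem cells (EpiSCs) are pluripotent cells taken from the embryo after implantation, in the primed state that precedes the germ layers. Wnt proteins are secreted signals that stabilise β-catenin inside the receiving cell, which then acts with Tcf and Lef factors on target genes. Before a Wnt protein can leave the cell it is given a lipid by the enzyme Porcn and carried outwards by Wls, and IWP2 is an inhibitor of Porcn. In the embryo, Wnt3 and Nodal are needed for the primitive streak, the source of mesoderm and definitive endoderm, while anterior epiblast that is kept from these signals forms neural ectoderm.

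Sequence upstream of 3 Wnt target genes that fell under IWP2 is given because these genes carry matches to heptamers bound by Tcf and Lef factors. Capitals mark matches, on either strand, to the heptamer CTTTGAT, to its variant CTTTGAA, to its variant CTTTGTA or to its variant CTTTGTT. The genes are Sp5 and T, both transcription factors, and Dkk1, a secreted Wnt antagonist. All lie in the 250 bases upstream of a RefSeq transcription start on GRCm38.p6, are read 5′ to 3′ along the gene, and are promoter sequence outside the transcript.
Sp5, chr2:70474673-70474842, plus strand, 250 to 81 bases upstream: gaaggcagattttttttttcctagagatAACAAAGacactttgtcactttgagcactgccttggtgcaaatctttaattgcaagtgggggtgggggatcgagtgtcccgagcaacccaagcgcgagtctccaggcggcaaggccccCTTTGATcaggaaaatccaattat
T, chr17:8434173-8434272, plus strand, 250 to 151 bases upstream: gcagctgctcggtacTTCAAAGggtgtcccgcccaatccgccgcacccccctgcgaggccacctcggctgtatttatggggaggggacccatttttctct
Dkk1, chr19:30549547-30549646, minus strand, 150 to 51 bases upstream: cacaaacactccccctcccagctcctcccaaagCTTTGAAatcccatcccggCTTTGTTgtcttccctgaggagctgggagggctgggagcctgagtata
Of all 27025 genes with a promoter in the RefSeq table, 16.8% held at least 1 of the 4 heptamers in this window, with overlapping matches allowed. Matching by symbol, 5 of the 7 Wnt target genes that fell had a promoter in the table, and 4 of these held a match (Sp5, T, Dkk1 and Tnfrsf19, but not Ascl2). Of the 2 targets that rose, Sp8 was in the table and held a match. Of the 15 targets that were not called, 9 were in the table and Lef1 alone held a match. A match is a string of letters and no evidence of binding, and these counts were not tested.

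Values are log2 levels, that is the log2 processed signal of a probe minus the log2 of the 75th percentile of its array, so that 0 is the level of the 75th percentile probe. The 75th percentile of the signal was 153 and 159 on the treated arrays and 163 and 178 on the untreated arrays, and 45.0% and 52.5% of probes on the treated arrays were well above background, against 48.1% and 47.6% on the untreated arrays. The number of arrays limits the precision. The treated arrays lay on 1 slide together with line Wt1, and the untreated arrays on another slide with 129Ba1, 129Ba2 and BNa17, so that the slide and the treatment cannot be told apart. All 4 were scanned on 1 day. Treated 129C1 was therefore also set against line Wt1 on its own slide, which changes the line as well as the treatment and shares the treated arrays with the main comparison.

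IWP2 treatment was accompanied by a near loss of most definitive endoderm transcripts tested in 129C1, lower levels of part of the organizer, primitive streak and Wnt target genes, and higher levels of several neural and Hox genes. Of 15088 genes tested, 585 were called (3.88%), meaning a Benjamini-Hochberg adjusted p from limma below 0.05 and a difference of at least 2-fold. Of these, 210 were higher (1.39%) and 375 lower (2.49%) in treated cells. These shares are the background for every list count below, and no list was tested as a set. Counting just the called genes that all 4 arrays measured above background, 15 were more than 4-fold higher and 69 more than 4-fold lower. The median change over all genes was -0.022. Of 103 genes named here for their calls, 34 lost the call with normexp background correction and 41 in a fit of these 4 arrays alone, T among them in both. Errors after ± are standard errors of the log2 difference, and n = 2 arrays per group throughout. These errors and the p-values rest on the spread within all 12 groups of the 24 arrays, embryo groups included, and not on the 129C1 arrays alone. In bulk RNA, fewer cells of a type and less RNA per cell cannot be told apart. Where a gene was well above background on neither array of 1 group and on both of the other, the size is given only as a bound, "at least N-fold", computed against the higher of the lowest well-measured signal and the gene's own on each array. A bound holds for the background correction used and is no floor under other processing, and with normexp changes could be smaller than the bound. Over the alternative settings given at the end, the smallest log2 changes were -6.79 for Cer1, -5.34 for Foxa2, -2.98 for Gata6 and -2.91 for Dkk1. Each of these is smaller than the bound given for that gene below. Where the brighter group had 1 such array, the call is given without a size.

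Definitive endoderm genes had the lowest median change of the 32 gene lists examined. Of 14 definitive endoderm genes 12 were tested, 10 were called lower and 0 higher (background 2.49% lower), with a median fitted change of -5.31 on the log2 scale (-4.47 with the 9 genes that have only a bound set at it). All 12 were well above background on both untreated arrays, and 9 of 12 were so on neither treated array. Cer1, which encodes a secreted antagonist of Nodal, BMP and Wnt made by anterior endoderm, had log2 levels of -4.43 and -4.89 in treated cells, against 6.01 and 5.77 in untreated cells. This is a fall of at least 718-fold (adjusted p = 6.19e-06). Foxa2, a forkhead factor that marks endoderm and node, had levels of -4.34 and -5.99 in treated cells, against 4.37 and 3.98 in untreated cells. The groups lay far apart for both genes, and neither was well above background on a treated array. Foxa2 was at least 219-fold lower (adjusted p = 1e-06), and its second probe was also well above background on both untreated arrays and on neither treated array.

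Other factors of the endoderm programme fell with them. The zinc finger factor Gata6 had levels of -5.24 and -4.86 in treated cells, against 1.70 and 2.01 in untreated cells, and was at least 43.7-fold lower (adjusted p = 2.46e-05). Sox17, a factor required for definitive endoderm, had levels of -4.18 and -4.97 in treated cells, against 1.55 and 1.23 in untreated cells, and was at least 31.8-fold lower, with an adjusted p of 0.00065. Hhex, a homeobox factor of anterior endoderm, had levels of -3.31 and -3.67 in treated cells, against 2.64 and 2.35 in untreated cells. Hhex was still well above background on 1 treated array and changed by -5.98 ± 0.50 (adjusted p = 3.64e-06). Foxa1 was at least 25.5-fold lower, Gata4 at least 19.2-fold, the chemokine receptor gene Cxcr4 at least 12.9-fold and Foxa3 at least 2.54-fold. With normexp background correction Foxa3 lost the call, with a change of -0.48 (adjusted p = 0.161). Trh, which encodes thyrotropin-releasing hormone, remained well measured in both groups, with levels of 5.30 and 4.20 in treated cells, against 8.24 and 7.89 in untreated cells. It changed by -3.32 ± 0.49 (adjusted p = 0.00065), or 9.99-fold lower. Foxq1, a forkhead gene outside the list, was among the largest falls over all genes, by at least 81.2-fold (adjusted p = 2.94e-06).

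**Figure D1:**
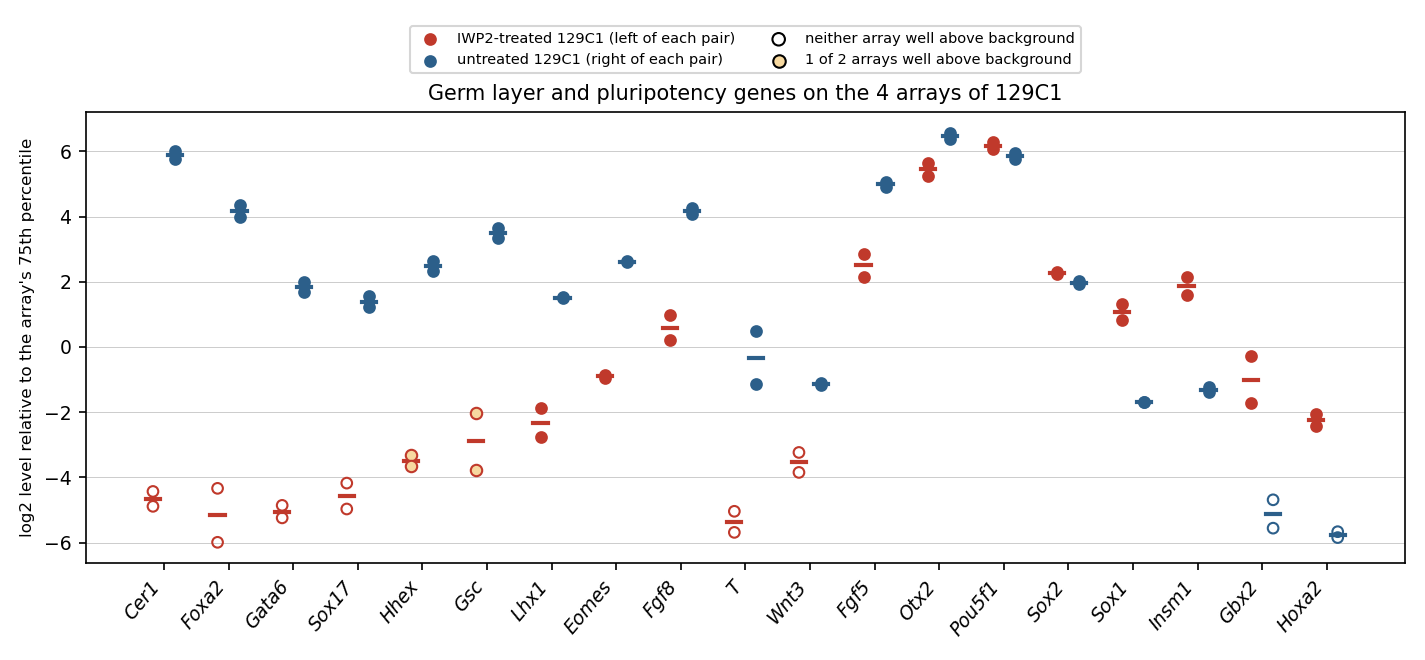
Log2 level relative to the array's 75th percentile (vertical axis) of germ layer and pluripotency genes on each of the 4 arrays of 129C1, with IWP2-treated arrays in red to the left of untreated arrays in blue, a short bar at each group's mean, and hollow points where a gene was well above background on neither array of the group (pale yellow for 1 of 2). Endoderm genes such as Cer1 sat between -4.43 and -4.89 in treated cells and between 6.01 and 5.77 in untreated cells, whereas Pou5f1 lay close to 6 in both.

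Genes of the organizer, the region that patterns the anterior embryo, fell less evenly. Of 11 organizer genes 9 were tested, with 5 lower and 1 higher (background 2.49% and 1.39%) and a median change of -2.65. Gsc, a homeobox gene of the anterior streak, had levels of -3.77 and -2.01 in treated cells, against 3.65 and 3.34 in untreated cells, and changed by -6.39 ± 0.45 (adjusted p = 8.8e-07). Hesx1, a homeobox gene of anterior endoderm and forebrain, had levels of -4.49 and -3.55 in treated cells, against 1.83 and 1.42 in untreated cells, and changed by -5.64 ± 0.40 (adjusted p = 9.33e-07). Both were well above background on 1 of 2 treated arrays and on both untreated arrays. Lhx1, a LIM homeobox gene needed for head formation, had levels of -2.77 and -1.88 in treated cells, against 1.49 and 1.53 in untreated cells. It stayed above background in treated cells and was 14.3-fold lower (log2 change -3.83 ± 0.40, adjusted p = 2.46e-05). Foxj1, a regulator of ciliated cells, was 6.29-fold lower, and Dkk1, taken up with the Wnt targets, also fell. Nog, which encodes the BMP antagonist noggin, went the other way, with levels of 1.59 and 1.76 in treated cells, against 0.25 and 0.16 in untreated cells (log2 change 1.46 ± 0.33, adjusted p = 0.0154). Without any 1 of the 4 arrays the adjusted p of Nog was 0.0515 to 0.113.

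Primitive streak and mesoderm genes were lower in part. Of 22 genes 19 were tested, 8 were lower and 0 higher (background 2.49% lower), with a median change of -0.96. Of the 19, 7 were well above background on none of the 4 arrays. With normexp background correction 3 genes of the list were called, and in the fit of 4 arrays 5. T, the T-box factor that defines the primitive streak, had levels of -5.04 and -5.69 in treated cells, against 0.48 and -1.15 in untreated cells. This put T at 9.61-fold lower or more (adjusted p = 1.79e-04). Its untreated arrays differed by more than those of the endoderm genes above, and its adjusted p was 0.0551 in a fit of the 4 arrays alone. With normexp background correction T changed by -1.35 (adjusted p = 0.054). Eomes, a T-box factor for endoderm and mesoderm, had levels of -0.85 and -0.94 in treated cells, against 2.65 and 2.60 in untreated cells, and was 11.5-fold lower (log2 change -3.52 ± 0.33, adjusted p = 1.02e-05). Fgf8, a growth factor needed for cells to leave the streak, had levels of 0.97 and 0.21 in treated cells, against 4.26 and 4.08 in untreated cells, and was 11.9-fold lower (log2 change -3.58 ± 0.29, adjusted p = 2.8e-06). For both genes the arrays of each group lay closer together than the groups. Tbx1, a T-box factor of later mesoderm, was at least 4.88-fold lower. With normexp background correction it changed by -0.92 (adjusted p = 0.0282), under the 2-fold limit.

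Lefty2, a Nodal antagonist of lateral mesoderm, changed by -3.02 ± 0.62 (adjusted p = 0.00847), and its adjusted p was 0.0763 without untreated replicate 1 and 0.0803 without treated replicate 2. Snai1, a repressor that drives epithelial to mesenchymal transition, changed by -1.40 ± 0.33, and lost its call without any array but treated replicate 1 (adjusted p 0.111 to 0.237). Isl1, a homeobox gene of cardiac progenitors, was at least 1.66-fold lower, with an adjusted p of 0.09 without untreated replicate 1 and of 0.117 without treated replicate 2. In the blood and endothelial list, 13 of 17 genes were tested, 2 were lower and 2 higher, and the median change was -0.19. Flt1, a receptor for vascular growth factors, had levels of -1.13 and -1.41 in treated cells, against 2.87 and 2.73 in untreated cells (log2 change -4.07 ± 0.32). Gata1, an erythroid factor, was at least 20.9-fold lower. Fli1, an Ets factor of endothelium, was at least 3.68-fold higher, and Tal1, a haematopoietic factor, at least 1.67-fold higher. For Tal1 the adjusted p was 0.062 to 0.0848 without 1 array (all but treated replicate 2). With normexp background correction Fli1 and Tal1 lost the call, with changes of 0.996 (adjusted p = 0.00642) and 0.38 (adjusted p = 0.385). In the fit of the 4 arrays alone Fli1 also lost it (adjusted p = 0.0574). The list therefore had calls in both directions in the main fit, but its higher calls did not hold with normexp.

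Within the Wnt pathway, 0 of 7 genes for Wnt secretion and 0 of 18 intracellular components were called (median changes -0.05 and -0.0039). With 3.88% of all genes called, lists of this size are near the background at 0, and nothing is read from these counts. With all probes of a gene averaged, 1 intracellular component was called. The factor gene Tcf7l2 was lower on 2 probes other than its brightest, by -1.67 ± 0.23 and -1.87 ± 0.43. Their adjusted p over all probes was 0.00122 and 0.0526. Porcn, the enzyme inhibited by IWP2, had levels of -0.50 and 0.11 in treated cells, against 0.91 and 0.60 in untreated cells. Its change of -0.95 ± 0.32 did not pass the test (adjusted p = 0.109). The carrier Wls changed by -0.05 ± 0.21 (adjusted p = 0.951), with all 4 arrays between 1.22 and 1.40.

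Of 12 Wnt ligands tested, 2 were lower and 0 higher (background 2.49% lower). Wnt3, the ligand required for the primitive streak, had levels of -3.24 and -3.85 in treated cells, against -1.11 and -1.17 in untreated cells. It was well above background on neither treated array and at least 5.30-fold lower (adjusted p = 4.84e-05), but with normexp background correction it changed by -0.73 (adjusted p = 0.0236), under the 2-fold limit, and no Wnt ligand was called. Wnt11, a ligand of the noncanonical branch, changed by -1.33 ± 0.25, with an adjusted p of 0.0502 without untreated replicate 1. Of 20 receptors and R-spondins tested, 3 were lower and 0 higher (background 2.49% lower). The receptor tyrosine kinase gene Ror2, which responds to noncanonical Wnt, had levels of -1.65 and -1.97 in treated cells, against 0.60 and 0.48 in untreated cells (log2 change -2.35 ± 0.22). The Frizzled receptor gene Fzd5 changed by -1.63 ± 0.28, and Lgr5, a receptor for R-spondins, is given with the targets. Lgr4, its relative, changed by 0.81 and passed the adjusted p (0.0434) but not the 2-fold limit.

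Of 11 secreted Wnt antagonists tested, 4 were lower and 0 higher (background 2.49% lower). Sfrp5, a Frizzled-related inhibitor expressed in anterior endoderm, had levels of -2.52 and -2.39 in treated cells, against 3.86 and 3.38 in untreated cells. It was well above background on all 4 arrays and 67.4-fold lower (log2 change -6.08 ± 0.72, adjusted p = 8.03e-05), the largest fall among named genes well above background on all 4 arrays. Frzb, another Frizzled-related inhibitor, was at least 6.42-fold lower. With normexp background correction it changed by -0.98 (adjusted p = 0.0248), under the 2-fold limit. Cer1 and Dkk1 were the remaining members that fell, and both also belong to lists above.

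Of 25 Wnt target and feedback genes 24 were tested, 7 were lower and 2 higher (background 2.49% and 1.39%), and the median change was -0.44. Dkk1, whose promoter stretch above held 2 matches, had levels of -5.43 and -5.96 in treated cells, against 1.67 and 1.21 in untreated cells, and was at least 32.9-fold lower (adjusted p = 7.23e-06). Sp5, a zinc finger factor induced by Wnt in the streak, had levels of -5.38 and -4.65 in treated cells, against 0.21 and -0.39 in untreated cells, and was at least 11.4-fold lower (adjusted p = 2.46e-05). Lgr5 had levels of -5.39 and -5.95 in treated cells, against -0.25 and -0.76 in untreated cells, and was at least 8.55-fold lower (adjusted p = 1.21e-05). All 3 were well above background on both untreated arrays and on neither treated array. T and Fgf8 also count among the targets. Tnfrsf19, a receptor of the tumour necrosis factor family, changed by -2.40 ± 0.24 and was measured above background on 1 treated array, and Ascl2, a basic helix-loop-helix factor of intestinal stem cells and trophoblast, by -1.93 ± 0.24.

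The response was not uniform over the targets. Sp8, a relative of Sp5 expressed in forebrain and limb ectoderm, had levels of 0.54 and 0.29 in treated cells, against -1.18 and -2.51 in untreated cells, and rose by 2.26 ± 0.32 (adjusted p = 4.35e-04). Apcdd1, a membrane-bound Wnt inhibitor, was well above background on 1 treated array and no untreated array, and was called higher, with adjusted p of 0.105 to 0.231 without 1 array (all but treated replicate 2). Axin2, a feedback inhibitor often read as a Wnt reporter, was well above background on none of the 4 arrays at its brightest probe, with levels of -5.34 and -4.49 in treated cells, against -4.11 and -5.49 in untreated cells. Its other probe, measured on all 4 arrays, changed by 0.30 ± 0.46. Neither probe thus showed a difference beyond the spread between arrays. Lef1 changed by -0.12 ± 0.24 (adjusted p = 0.89).

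**Figure D2:**
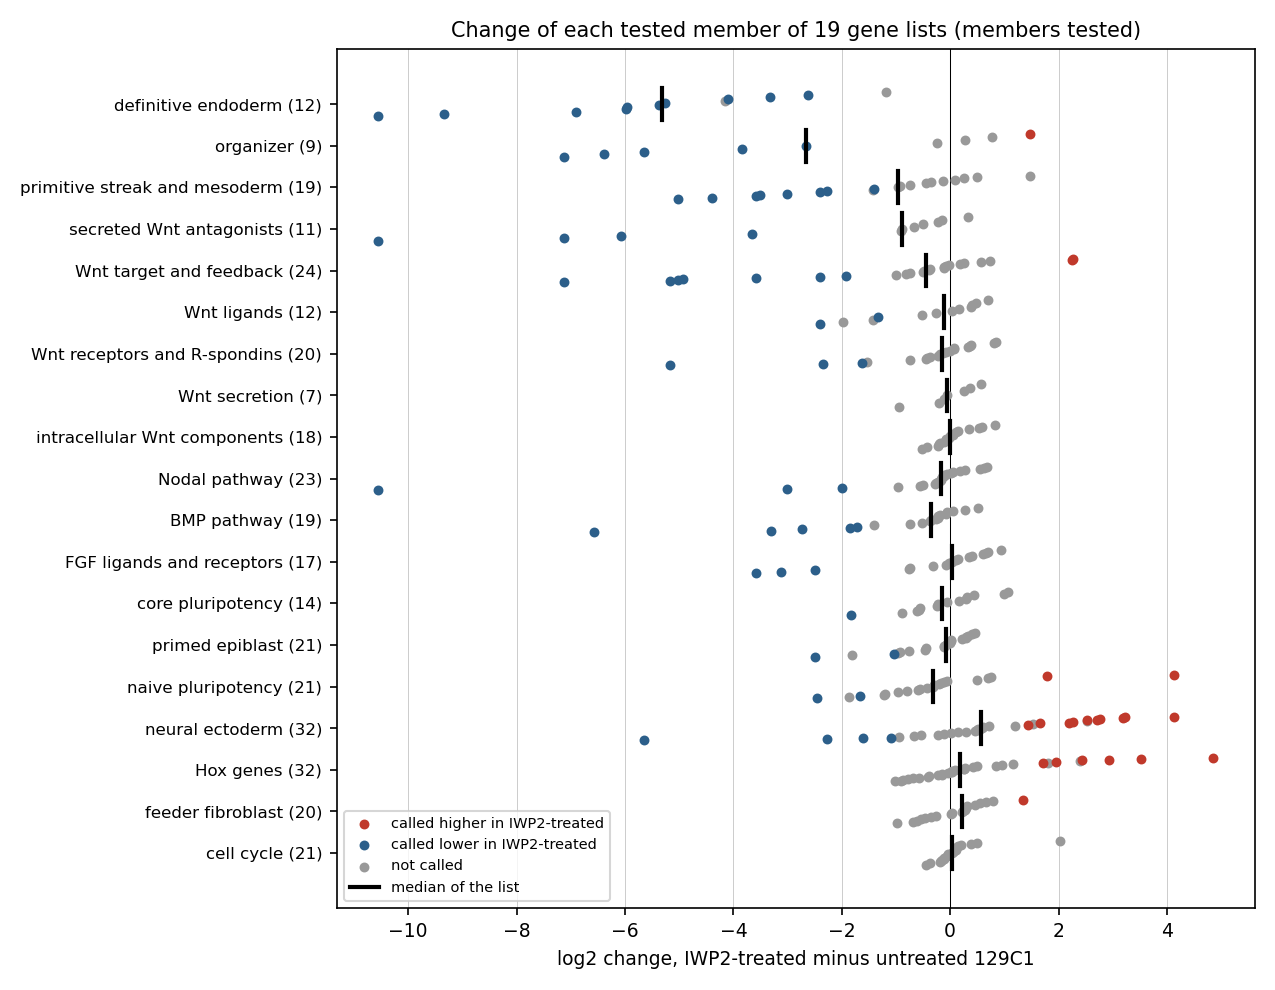
Log2 change of each tested member of the gene lists, IWP2-treated minus untreated 129C1 (horizontal axis), with 1 point per gene, genes called higher in red, called lower in blue and not called in grey, and a bar at the median of each list. The definitive endoderm list had a median of -5.31, the neural list one of 0.57, and most other lists had medians near 0 with single members far from it.

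Among Nodal pathway genes, 3 of 23 were lower and 0 higher (background 2.49% lower). Nodal itself had levels of 4.17 and 3.83 in treated cells, against 3.40 and 3.26 in untreated cells, and its change of 0.67 ± 0.29 did not pass the test (adjusted p = 0.242). Its antagonist Lefty1 stayed among the brightest members, at 6.49 and 6.51 in treated cells, against 6.04 and 5.69 in untreated cells (adjusted p = 0.681). Gdf3, a ligand that acts with Nodal, had levels of 1.73 and 1.43 in treated cells, against 3.62 and 3.51 in untreated cells, and changed by -1.99 ± 0.22 (adjusted p = 3.87e-05). The other members called were Cer1 and Lefty2. Cfc1, which encodes a Nodal co-receptor and was found among the largest falls over all genes, had levels of -4.85 and -4.84 in treated cells, against 4.71 and 4.56 in untreated cells. Cfc1 was at least 301-fold lower (adjusted p = 8.9e-08).

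In the BMP pathway 5 of 19 genes were lower and 0 higher (background 2.49% lower). The ligand Bmp2 had levels of -3.64 and -4.15 in treated cells, against 2.79 and 2.58 in untreated cells, and was at least 78.1-fold lower (adjusted p = 4.65e-05). The direct BMP targets Id3 and Id1, which encode inhibitors of basic helix-loop-helix factors, remained well measured. Id3 had levels of 0.72 and 0.0014 in treated cells, against 3.78 and 3.56 in untreated cells, and was 9.92-fold lower (log2 change -3.31 ± 0.27, adjusted p = 2.94e-06). Id1 was 6.68-fold lower (log2 change -2.74 ± 0.30). The ligand Bmp7 changed by -1.72 ± 0.28 and the antagonist Grem1 by -1.86 ± 0.34. For Grem1 the adjusted p was 0.0591 without treated replicate 2.

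Of 17 FGF ligands and receptors 3 were lower and 0 higher (background 2.49% lower), with a median change of 0.03. Fgf5, a ligand and marker of the primed epiblast, had levels of 2.86 and 2.16 in treated cells, against 5.06 and 4.92 in untreated cells. It was 5.60-fold lower (log2 change -2.49 ± 0.22, adjusted p = 6.19e-06), remaining well above background on all 4 arrays. Fgf8 was given above, and Fgf10, a ligand of mesoderm, was at least 3.15-fold lower with adjusted p of 0.0594 to 0.208 without any 1 array. Among genes that feed back on Erk signalling, the phosphatase gene Dusp14 was higher and Dusp4 lower, of 17 tested (background 3.88% called). Dusp14 changed by 1.32 ± 0.28 (adjusted p of 0.0505 to 0.119 without 1 array, all but untreated replicate 2), and Dusp4 by -1.11 ± 0.26 (adjusted p of 0.175 without untreated replicate 1 and of 0.143 without treated replicate 2).

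For the core pluripotency genes the count of calls was near the background (1.39% higher and 2.49% lower), and nothing is read from it. Of 14, 1 was lower and 0 were higher. Pou5f1, the factor that defines pluripotent cells, had levels of 6.28 and 6.07 in treated cells, against 5.96 and 5.75 in untreated cells, and Sox2, its partner, had levels of 2.23 and 2.29 in treated cells, against 2.01 and 1.93 in untreated cells. Their changes of 0.32 ± 0.32 and 0.29 ± 0.15 did not pass the test (adjusted p = 0.702 and 0.334), and Nanog, at 0.99 ± 0.31, missed it as well (adjusted p = 0.0894). None of these 3 factors thus passed the test. The primed marker Fgf5 was lower in treated cells, as given above, but remained well above background on all 4 arrays. Zfp42, a naive marker, was well above background on none of the 4 arrays. Whether treated cells kept the EpiSC state was not tested.

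Of 21 primed epiblast genes, Fgf5 and Otx2 were lower and 0 were higher. Otx2, a homeobox factor of epiblast and forebrain, had levels of 5.24 and 5.65 in treated cells, against 6.58 and 6.39 in untreated cells. Its change of -1.04 ± 0.20 (adjusted p = 0.00526) had an adjusted p of 0.0674 without untreated replicate 1 and of 0.0603 without treated replicate 1. Of 21 naive pluripotency genes 2 were lower and 2 higher. Gbx2, a homeobox factor shared by naive cells and posterior neural ectoderm, had levels of -0.26 and -1.73 in treated cells, against -5.56 and -4.69 in untreated cells, and was at least 6.33-fold higher (adjusted p = 1.96e-05). Nr0b1, an orphan nuclear receptor, was at least 3.35-fold lower, but changed by -0.54 with normexp background correction (adjusted p = 0.264). Esrrb, another, changed by -1.65 ± 0.46 (adjusted p = 0.049), and its adjusted p was 0.144 to 0.224 without any 1 array. Klf4 changed by -1.23 ± 0.50 and was not called (adjusted p = 0.205). Nr5a2, measured on 1 of 2 treated arrays and no untreated array, was called higher, with an adjusted p of 0.107 without untreated replicate 2 and of 0.0893 without treated replicate 2. With normexp background correction Esrrb changed by -0.70 (adjusted p = 0.234) and Nr5a2 by 0.35 (adjusted p = 0.421), and 1 naive gene was called. The naive list thus had calls in both directions in the main fit (background 1.39% higher and 2.49% lower), but its lower calls did not hold with normexp.

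Neural ectoderm genes rose more often than they fell. Of 37, 32 were tested, 10 were higher (background 1.39% higher) and 4 lower, with a median change of 0.57, and 24 were well above background on both treated arrays against 19 on both untreated arrays. Called in either direction were 14 of them, against 7 with normexp background correction and 6 in the fit of 4 arrays. Sox1, the earliest marker of neural ectoderm, had levels of 0.83 and 1.32 in treated cells, against -1.68 and -1.69 in untreated cells. It rose by 2.76 ± 0.26, or 6.78-fold (adjusted p = 8.7e-06). A second, dimmer probe of Sox1 changed by 1.096 ± 0.26 (adjusted p over all probes = 0.0554), so the probes gave 1 direction but different sizes. Insm1, a zinc finger factor of newborn neurons, had levels of 2.15 and 1.60 in treated cells, against -1.23 and -1.39 in untreated cells, and was 9.09-fold higher (log2 change 3.18 ± 0.18, adjusted p = 8.9e-08). Tubb3, the neuronal tubulin gene, was 2.70-fold higher (log2 change 1.43 ± 0.24, adjusted p = 0.00161).

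Several neural transcription factors were called higher at levels near background, and these calls depended on the background correction. Pou3f2, a POU factor, had levels of -3.15 and -2.37 in treated cells, against -5.99 and -5.99 in untreated cells, and was at least 1.87-fold higher (adjusted p = 0.00291). Pax6, a paired box factor of eye and forebrain, and Dbx1, a spinal cord factor, were called higher (adjusted p = 3.97e-04 and 0.00119), each well above background on 1 treated array and no untreated array. The LIM homeobox gene Lhx2 changed by 1.66 ± 0.27, and Lhx5 was at least 1.49-fold higher, with an adjusted p of 0.0577 for Lhx5 without untreated replicate 1. With normexp background correction Pou3f2, Pax6, Dbx1, Lhx2 and Lhx5 all lost the call, with changes of 0.40 to 0.59 and adjusted p of 0.103 to 0.188. Fabp7, the radial glia fatty acid binding protein, had levels of 1.65 and 0.35 in treated cells, against -0.85 and -1.55 in untreated cells. Its change of 2.20 ± 0.49 had an adjusted p of 0.155 without untreated replicate 2 and of 0.141 without treated replicate 1.

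The 4 neural genes that were lower include 2 of the most anterior domain. Hesx1 is given with the organizer. Rax, a homeobox factor of the eye field, had levels of -1.58 and -0.60 in treated cells, against 1.47 and 0.87 in untreated cells, and changed by -2.26 ± 0.47, with an adjusted p of 0.107 without untreated replicate 1 and of 0.0888 without treated replicate 1. Irx3, a homeobox factor of caudal forebrain and hindbrain, changed by -1.09 ± 0.25 and lost its call without 1 array (adjusted p 0.0588 to 0.169, all but untreated replicate 2). Pax7, a dorsal neural and neural border gene, was well above background on 1 untreated array and no treated array, and was called lower, with adjusted p of 0.0547 to 0.126 without 1 array (all but treated replicate 2).

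Hox genes, which specify position along the body axis, were higher in 6 and lower in 0 of 32 tested (of 39). The background was 1.39% higher, the median change was 0.18, and 13 of the 32 were well above background on none of the 4 arrays. On both treated arrays 12 were well above background, against 5 on both untreated arrays. Hoxa2, expressed in the hindbrain, had levels of -2.06 and -2.43 in treated cells, against -5.67 and -5.85 in untreated cells, and was at least 2.67-fold higher (adjusted p = 6.96e-07). Hoxa2 was thus measured on the treated arrays and not well above background on the untreated arrays. With normexp background correction 1 Hox gene was called and Hoxa2 lost its call, and in a fit of the 4 arrays alone 3 were called.

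The calls of 3 further Hox genes rested on single arrays. Hoxa3 was at least 4.16-fold higher, but its adjusted p was 0.0785 to 0.155 without any 1 array. Hoxb2 was at least 3.33-fold higher, with an adjusted p of 0.161 without untreated replicate 1 and of 0.0962 without treated replicate 1. Hoxa5 was called higher, with 1 of 2 treated arrays and no untreated array well above background, and an adjusted p of 0.114 to 0.189 without 1 array (all but treated replicate 2). Hoxb13, called as well, was well above background on none of the 4 arrays, so no fold is given.

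**Figure D3:**
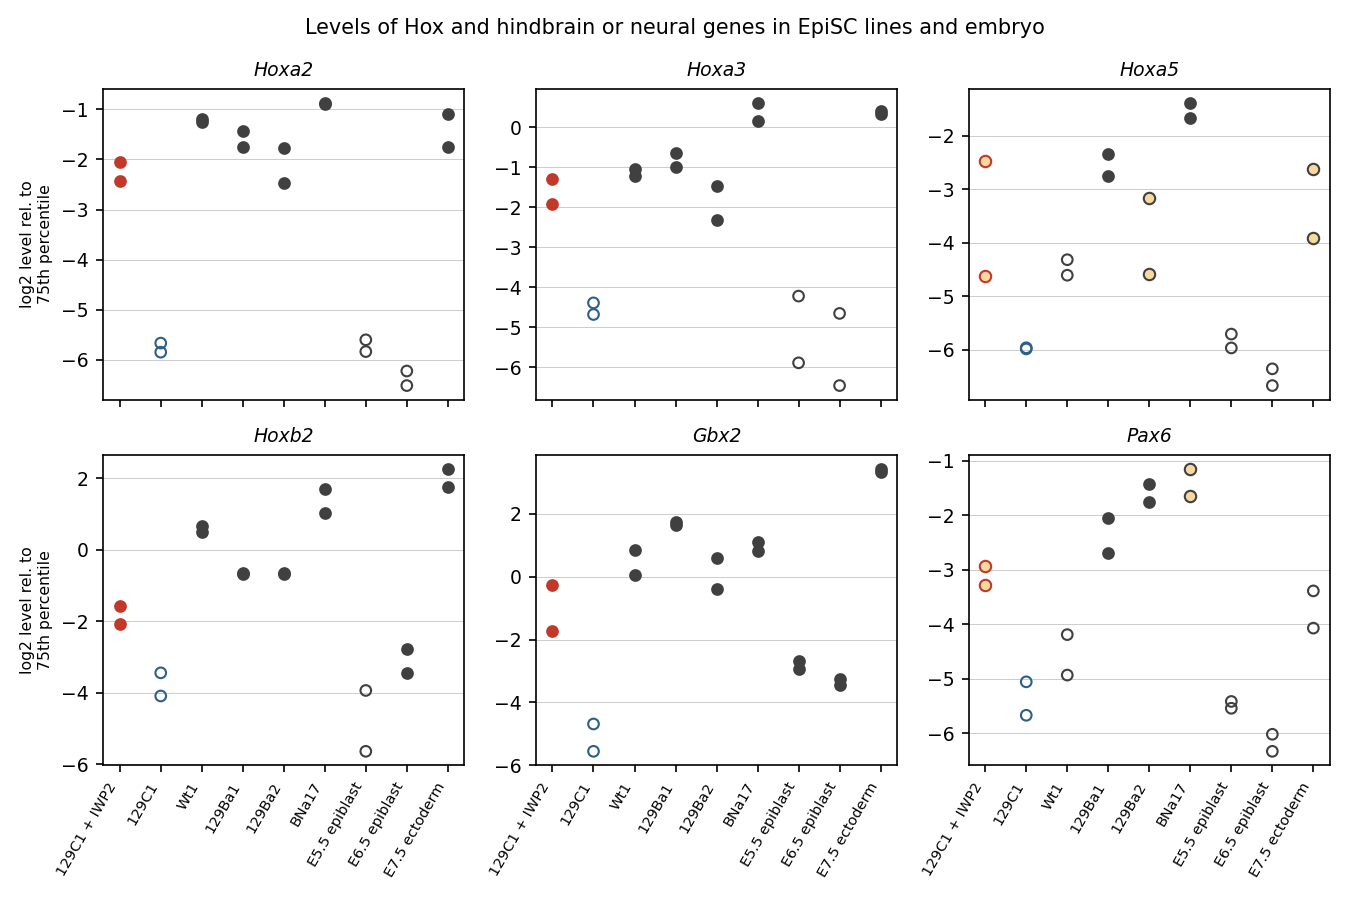
Log2 level (vertical axis) of Hoxa2, Hoxa3, Hoxa5, Hoxb2, Gbx2 and Pax6 in the EpiSC and embryo groups (horizontal axis), 1 point per array, with treated 129C1 in red, untreated 129C1 in blue and all other groups in dark grey. Filled points mark groups with both arrays well above background, pale yellow points groups with 1, and hollow points groups with neither, so that untreated 129C1 is hollow for Hoxa2 and Hoxa3 while the other EpiSC groups are filled.

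The levels were also set beside the other groups. Sox1 was at 0.83 and 1.32 in treated 129C1, against values between 0.51 and 2.17 in line Wt1, 129Ba1, 129Ba2 and BNa17, so that untreated 129C1, at -1.68 and -1.69, had the lowest level among EpiSC groups. Hoxa2 was well above background in line Wt1, 129Ba1, 129Ba2 and BNa17 (between -2.47 and -0.87), with treated 129C1 at -2.06 and -2.43 inside that range, and untreated 129C1, at -5.67 and -5.85, below it. Hoxb2, by contrast, stayed below the other EpiSC lines in treated 129C1, at -1.57 and -2.06, where those lines ranged between -0.68 and 1.71. Cer1 was well above background on no array of 129Ba1, 129Ba2 or BNa17 or of treated 129C1, but it was at 4.04 and 4.38 in line Wt1 and at 6.01 and 5.77 in untreated 129C1. T was likewise bright in line Wt1 (2.86 and 2.50) and in E6.5 epiblast (2.95 and 3.06). For Cer1 and T, treated 129C1 thus stood with the lines derived in a Wnt inhibitor, and untreated 129C1 and line Wt1 stood above them. These levels are a description, with the groups on different slides.

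**Figure D4:**
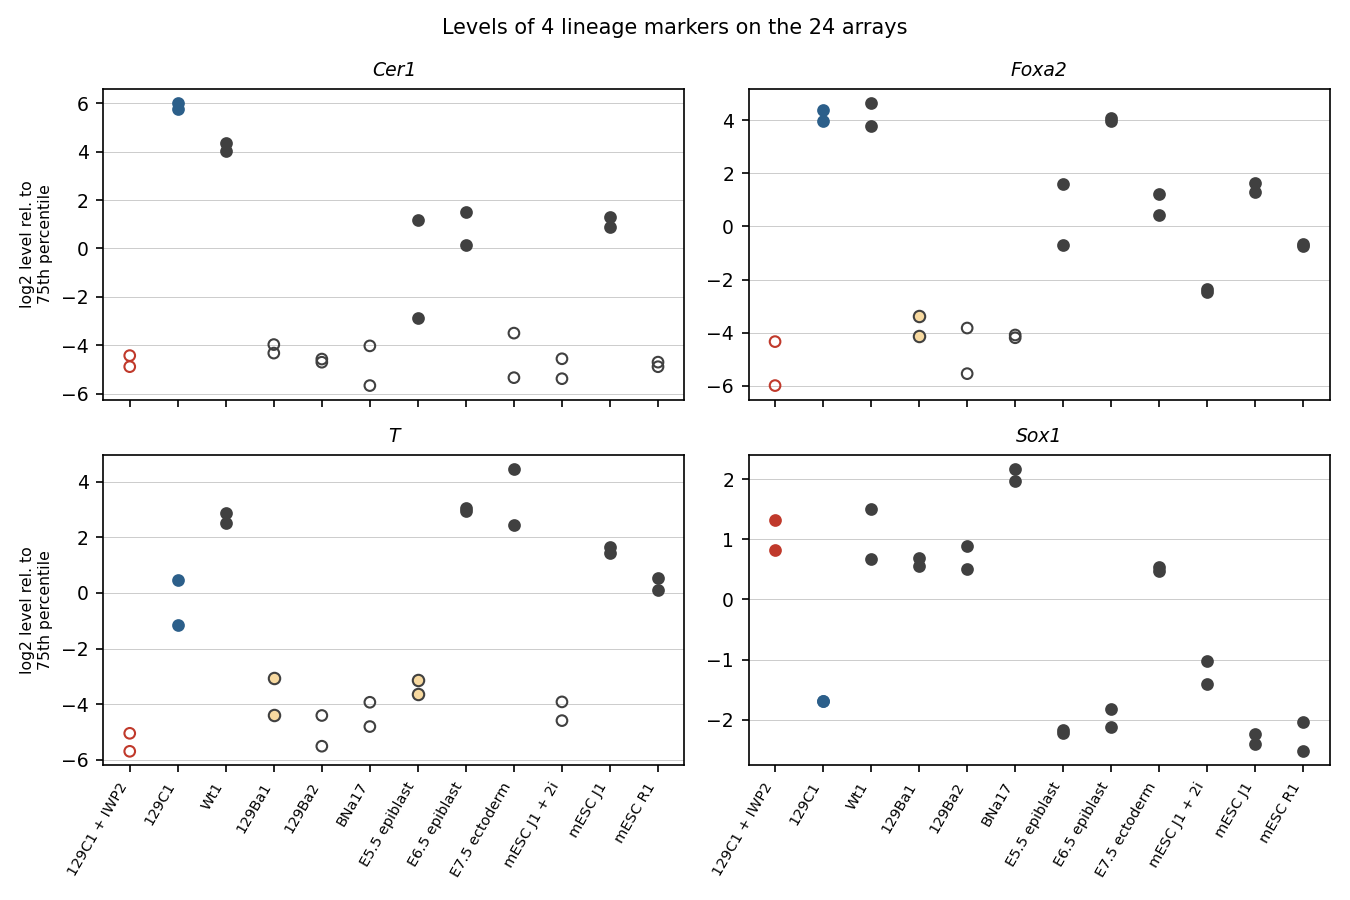
Log2 level (vertical axis) of the markers Cer1, Foxa2, T and Sox1 in each of the 12 groups (horizontal axis), 1 point per array, with treated 129C1 in red, untreated 129C1 in blue and other groups in dark grey; filled, pale yellow and hollow points mark groups with both, 1 or neither array well above background. Cer1, Foxa2 and T are high in untreated 129C1 and line Wt1 and hollow in treated 129C1, while Sox1 is low in untreated 129C1 only among the EpiSC groups.

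Markers of other cells were read on the same arrays. Of 20 genes typical of feeder fibroblasts, Dcn was called, and higher in treated cells (log2 change 1.35 ± 0.36, adjusted p = 0.0386, with 0.132 to 0.246 without 1 array, all but treated replicate 2). The summed level of the feeder list, in multiples of the 75th percentile signal, was 357 and 296 on the treated arrays, 235 and 280 on the untreated arrays, and 307 and 426 on the arrays of line Wt1. The mean log2 level of the feeder list overlapped between the groups of 129C1, at 2.22 and 1.52 on the treated arrays, against 1.68 and 1.90 on the untreated arrays. The part of feeder RNA in the results was not tested. Of 18 visceral endoderm genes, Cyp26a1 and Rbp4 were lower, and Afp, Ttr and Apoa4 were well above background on none of the 4 arrays. The summed level of the list was 69.7 and 101 in treated cells, against 91.2 and 83.9 in untreated cells, and its mean log2 level was -2.17 and -2.13 in treated cells, against -1.1 and -1.58 in untreated cells. The part of such cells in the results was not tested. Cyp26a1, a retinoic acid hydroxylase, changed by -6.38 ± 0.76, and Rbp4, a retinol carrier, by -2.74 ± 0.64, with an adjusted p for Rbp4 of 0.0592 to 0.161 without any 1 array. Of 15 trophoblast genes, Krt7, Gata3 and Ascl2 were lower, with a summed level of 3.13 and 3.07 in treated cells, against 10.51 and 10.78 in untreated cells, while Cdx2 and Elf5, which define that lineage, were well above background on none of the 4 arrays. Krt7, a keratin of simple epithelia, changed by -3.67 ± 0.35, and Gata3, a zinc finger factor, by -3.55 ± 0.46. Neither gene was well above background on all 4 arrays, so these sizes depend on the processing. Over the alternative settings the smallest log2 changes were -1.85 for Krt7 and -1.49 for Gata3. In the fit of the 4 arrays alone Krt7 lost its call (adjusted p = 0.0563).

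Of 15 keratins and claudins, the junction and filament genes of epithelia, 3 were higher and Krt7 was lower. Krt20, an intestinal keratin, was at least 3.24-fold higher (adjusted p = 9.22e-04), but changed by 0.68 with normexp background correction (adjusted p = 0.0802). Cldn3 and Cldn4, at 1.12 ± 0.26 and 1.63 ± 0.41, each lost the call without 1 of 3 of the arrays. Among 17 genes of surface ectoderm and neural border Gata3 alone was called, and among 20 genes of the mesenchymal transition and cadherins Snai1 alone. A probe of the cadherin gene Cdh2 other than its brightest changed by -1.12 ± 0.25 (adjusted p over all probes = 0.042). With all probes of a gene averaged, 2 genes of the transition and cadherin list were called.

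Lists for general cell state gave counts at or near the background of 3.88% called, and nothing is read from them. Counts were 0 of 21 cell cycle genes, 0 of 20 p53 targets and Cdk inhibitors, 0 of 25 genes of glycolysis and the hypoxia response, 0 of 18 basement membrane genes and 0 of 24 cholesterol synthesis genes. The cholesterol list had a median change of 0.46 without a single call. Among 16 immediate early and Myc genes, Mycl, a Myc family member, was lower. It changed by -1.36 ± 0.29, with an adjusted p of 0.125 without untreated replicate 1 and of 0.107 without treated replicate 1. Prdm1, a repressor that specifies germ cells and also marks endoderm, was the 1 gene called among 13 germline genes, at -2.49 ± 0.42 (adjusted p = 0.00176).

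Outside these lists, the largest rise among genes measured on all 4 arrays was that of the gene Wt1, the Wilms tumour factor of kidney and gonad, which is unrelated to the line of that name. Its levels were 1.67 and 1.12 in treated cells, against -1.77 and -2.19 in untreated cells, or 10.4-fold higher (log2 change 3.38 ± 0.26, adjusted p = 1.71e-06). Shisa3, an inhibitor of Wnt and FGF receptor maturation, was 5.07-fold higher, the neurotrophin receptor gene Ngfr 4.94-fold and the homeobox gene Pknox2 4.79-fold. Ap1m2, which encodes an epithelial sorting adaptor, was 4.67-fold higher, and Spon1, an axon guidance matrix protein, at least 5.76-fold. Amot, which encodes the Hippo pathway scaffold angiomotin, had levels of 1.94 and 1.95 in treated cells, against 6.07 and 5.98 in untreated cells, and was 16.9-fold lower (log2 change -4.08 ± 0.39, adjusted p = 1.18e-05). Asb4, an ankyrin repeat gene of vascular differentiation, had levels of -0.01 and -0.45 in treated cells, against 4.13 and 4.01 in untreated cells, and was 19.7-fold lower (adjusted p = 1.62e-07). Tuba8, an alpha-tubulin gene, was 21.0-fold lower, Tph1, the first enzyme of serotonin synthesis, 15.3-fold lower, and Gpx2, an epithelial glutathione peroxidase, 13.7-fold lower. These genes were picked as the largest changes, so the gap between their 2 groups of arrays follows from that choice.

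Against line Wt1 on the same slide, treated 129C1 differed in 2097 genes (13.9%), 888 higher (5.89%) and 1209 lower (8.01%), a difference that joins line and treatment. All 10 endoderm genes that were lower than in untreated 129C1 were also lower than in line Wt1, with a median change of -5.01 over the list. Cer1 differed by at least 224-fold, and Foxa2 by at least 225-fold. T was lower than in line Wt1 by at least 77.7-fold and Sp5 by at least 95.5-fold, and both genes were brighter in line Wt1 than in untreated 129C1 (T at 2.86 and 2.50, Sp5 at 3.12 and 2.83). Of the streak and mesoderm genes 15 of 19, and of the Wnt targets 13 of 24, were lower than in line Wt1, and 0 of either list were higher. Of the neural list 3 were higher and 10 lower, Sox1 changed by -0.02 (adjusted p = 0.975), and of the Hox list 0 were higher and 10 lower, with Hoxa2 at -1.02 (adjusted p = 0.00649). Insm1 and the gene Wt1 were higher in treated 129C1 than in line Wt1 as well, by 1.48 and 3.13 on the log2 scale.

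The mESC line J1 was also measured with and without 2i, a pair of inhibitors of Mek and Gsk3, the second of which raises β-catenin in the receiving cell. The changes under IWP2 and under 2i share no array, and their difference was tested as an interaction (10.8% of all genes called, 6.02% above and 4.8% below). J1 with 2i and J1 without it lay on different slides scanned on different days. Slide, scan day and 2i therefore cannot be told apart, and the difference joins these with the slides of 129C1 and with the lines. Over the 24 Wnt targets, 3 had a change under IWP2 that was above that under 2i and 5 one that was below it. Dkk1 was at least 32.9-fold lower under IWP2 and changed by -1.48 ± 0.65 under 2i, with 1 of 2 arrays of J1 in 2i well above background (adjusted p of the difference = 0.00101). Sp5 was at least 11.4-fold lower under IWP2 and changed by -1.25 ± 0.52 under 2i (adjusted p of the difference = 0.00417). Since the treated arrays of 129C1 give only a bound for both genes, no size is given for these differences. Sp8 went in opposite directions, higher by 2.26 ± 0.32 under IWP2 and at least 2.09-fold lower under 2i (adjusted p of the difference = 5.65e-06), and was well above background on neither array of J1 in 2i. Tnfrsf19 and Ascl2, which changed by -0.26 ± 0.24 and 0.17 ± 0.24 under 2i, were also below, with differences of -2.15 ± 0.34 and -2.10 ± 0.34, whereas Lef1 was above, with a difference of 1.26 ± 0.35. T and Fgf8 were lower under both treatments, T by at least 9.61-fold under IWP2 and at least 31.0-fold under 2i, and Fgf8 by -3.58 ± 0.29 under IWP2 and -3.85 ± 0.29 under 2i. The difference of 0.27 ± 0.40 for Fgf8 did not pass the test (adjusted p = 0.716), and for T, which has only bounds on both sides, none is given. Of the remaining calls, Lgr5 was well above background on no J1 array, and Apcdd1 on no array of J1 in 2i or of untreated 129C1.

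**Figure D5:**
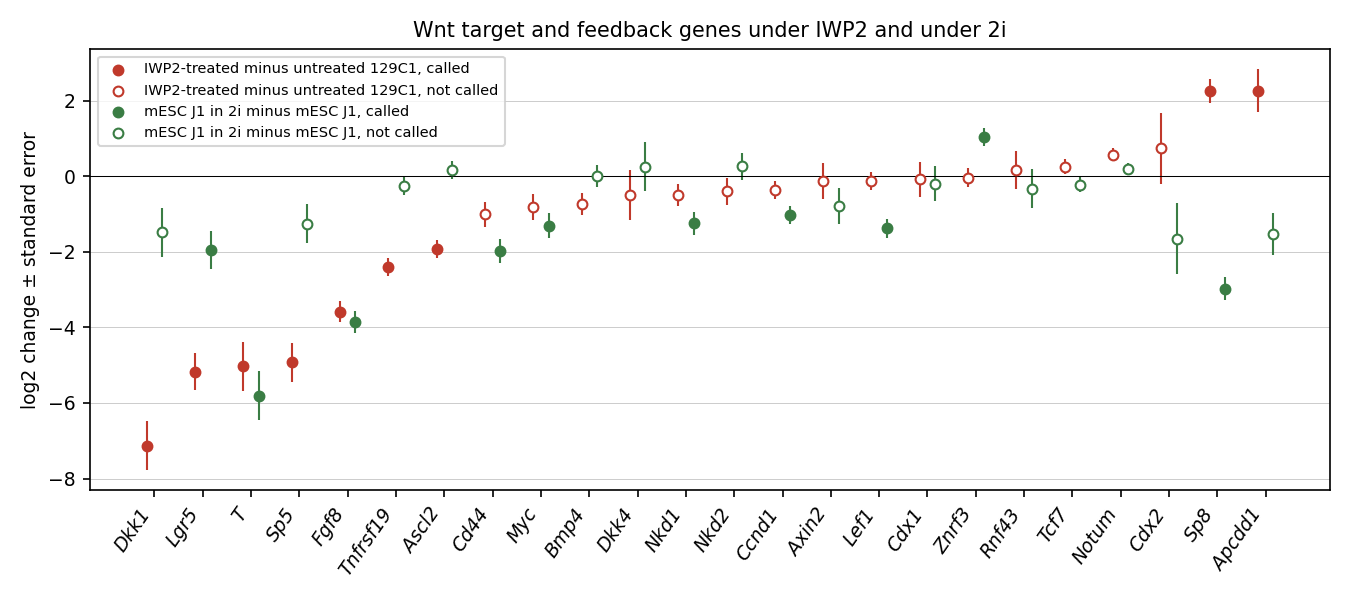
Log2 change ± standard error (vertical axis) of Wnt target and feedback genes under IWP2 in EpiSC line 129C1 and under 2i in mESC line J1 (horizontal axis, 1 gene per position). Dkk1 and Sp5 lie further down under IWP2, Sp8 lies above 0 under IWP2 and below 0 under 2i, and T and Fgf8 lie below 0 under both. Points of genes well above background on neither array of the treated group (such as Dkk1, Sp5, Lgr5 and T under IWP2, and Sp8 and T under 2i) are fitted values that end at background and are no sizes.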

How the data were processed

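Expression was measured on 24 Cy3-labelled Agilent arrays, 2 for each of 12 groups, of which 4 (IWP2-treated and untreated 129C1) were compared here. The scanner software was Agilent Feature Extraction 10.5.1.1, per the submitters' processing notes. Each array has a scanner file deposited by the authors, and its processed signal is, per the file headers, a linear intensity after background subtraction. The authors also deposited log2 values, which correlated with the matching array at r of at least 0.99997 and with any other at no more than 0.793, and were used as an alternative.

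Control spots (3671 of 62976) and values flagged as outliers were left out, and spots of 1 probe were averaged. The log2 processed signal was scaled to each array's 75th percentile. Of 55681 probes, 27235 were named through RefSeq accessions (20660 genes). A gene was represented by its brightest probe without a missing value, and tested if both arrays of some group were well above background (15088 of 20616 genes). Limma 3.58.1 (R 4.3.3, data.table version 1.17.8) was fitted over all 24 arrays as 12 groups (12 residual degrees of freedom), two-sided. Calls needed 2-fold and an adjusted p (Benjamini-Hochberg) under 0.05. With 2 arrays against 2, an exact permutation test cannot go below p = 0.333 and was not used.

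Named genes were up to 12 largest rises and falls among called genes above background on all 4 arrays (clone and predicted names left out), up to 6 largest bounds in each direction, called members of the lists described, and fixed markers; ligands, receptors and antagonists of the Wnt and Nodal lists could be named whether called or not. Lef1, Tcf7l2, Cdh2, Afp, Ttr, Apoa4, Cdx2 and Elf5 were named beyond this rule. The group of arrays, the markers and the 32 gene lists were chosen with earlier results of these data known. The fit was tested on simulated data. Promoters came from a RefSeq table of GRCm38.p6. Alternatives covered background correction, normalization, filters, probes, variance, arrays fitted and each array left out. The files hold no mean signal, so normexp (offset 50) used the median signal and median background. Results for 2 genes named by the rule are not reported here.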

Additional observations from a re-analysis of the deposited data

Results flagged for a closer look

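A part of the array lies outside the gene counts above. Of its probes, 16194 target genomic intervals with no gene name and were not used in the comparisons, and 6094 of these passed the same filter on background. In IWP2-treated against untreated 129C1, 38 of these interval probes were higher and 23 lower at an adjusted p below 0.05 and at least 2-fold (1% together), a signal in probes that no comparison of genes took up. Over all 11868 tested probes without a gene name, 56 were higher and 59 lower (0.969% together). The probes were not placed on a genome, so no position or transcript is given for them.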

How the results depend on the processing

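Of 103 named genes called, 48 kept the call under every one of the 17 alternatives that tested them, and the cause of the losses was not tested except where a stricter filter or fewer arrays removed genes or samples. With normexp background correction, 81 genes were higher and 191 lower, and calls fell to 3 in the streak list, 2 in the blood and endothelial list, 1 in the naive list, 7 in the neural list, 1 among Hox genes and 2 among keratins and claudins, while against line Wt1 406 genes were higher and 673 lower, and 4 Wnt targets differed between IWP2 and 2i. When all arrays compared had to be well above background, which removes genes lost from 1 group, 201 genes were lower, and calls were 1 in definitive endoderm, 3 in the organizer list, 4 in the streak list, 1 in the blood list, 3 among Wnt targets, 1 among antagonists, 1 in the naive list, 7 in the neural list, 0 among Hox genes and 2 among keratins and claudins. Without the fold minimum 341 genes were higher, and 1677 against line Wt1. With the 4 arrays of 129C1 alone, which leaves fewer degrees of freedom, 77 genes were higher and 199 lower, and calls were 5 in the streak list, 5 among Wnt targets, 3 in the BMP list, 1 in the naive list, 6 in the neural list, 3 among Hox genes and 1 among keratins and claudins (2 with the 12 EpiSC arrays). Leaving out 1 array gave 112 to 188 genes higher (112 without untreated replicate 2) and 237 to 360 lower (237 without untreated replicate 1), with 10 to 10 endoderm, 5 to 5 organizer, 5 to 8 streak, 3 to 4 blood, 8 to 9 Wnt target, 4 to 4 antagonist, 5 to 5 BMP, 2 to 3 naive, 10 to 13 neural, 2 to 5 Hox and 2 to 3 keratin or claudin genes called; the lone array of a group is then assumed to vary like the other groups. Against line Wt1 this gave 648 to 950 higher and 843 to 1250 lower, and 7 to 9 Wnt targets differed between IWP2 and 2i. Axin2, called under none of these, changed sign to 0.12 with normexp and to 0.089 with all probes averaged, and lay between -0.81 and 0.57 without 1 array (0.30 without treated replicate 1 and 0.57 without untreated replicate 1). With the replicate number as a replicate block 208 genes were higher and 364 lower, and all 110 genes followed kept their side of the threshold; the deviations of same-numbered arrays correlated at 0.1018 over only 2 pairs, so the numbers were not taken as pairs. The slide could not be fitted as a random block, since each group lies on 1 slide. The filter on the 2 groups compared and leaving out a BNa17 array of low signal were chosen after seeing the data and changed no call among the named genes they tested. Quantile normalization and the authors' deposited values gave 226 and 210 genes higher and 396 and 375 lower.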
